A study of Mus musculus with 24 samples.

Results

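The binding of Cdx2 was followed at 9 genes for enzymes and transporters of the brush border, the apical membrane with which small-intestinal enterocytes finish digestion and take up its products. They were the disaccharidases Lct, Sis, Mgam and Treh, the peptidases Anpep and Dpp4, the phosphatase Alpi, the glucose transporter Slc5a1 and the peptide transporter Slc15a1. Peaks of Cdx2 were counted for a gene when the summit lay in the gene body or within 50 kb to either side. The 12 peak lists placed 224 of 206283 peaks in these windows, and merging overlapping peaks left 51 of 61454 sites.

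Cdx2 binding had been mapped by ChIPmentation, in which a transposase adds the sequencing adapters to immunoprecipitated chromatin, in organoids from the first and the last centimetre of the colon of 3 female mice aged 8 weeks. Per the study's methods the mice carried 1 Cre-inducible BrafV600E allele and 1 tdTomato reporter allele, which all groups shared, and the labels name no Cre and call the organoids normal. The 4 groups were proximal and distal organoids, about 4 months in culture, kept in WENR-plus medium (Wnt3a, EGF, Noggin and R-spondin) or, in the WENR-minus groups, plated for 2 days with these factors and then held 3 days without them, with 3 Cdx2 libraries a group. The 12 inputs entered only as the control of each peak call. Organoids lack the stroma, immune cells, lumen and diet of the colon, each library is a mixture of epithelial cells, and fewer bound cells and weaker binding in each cell cannot be told apart.

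Cdx2 is a homeodomain factor of the intestinal epithelium, and the genes of small-intestinal sucrase-isomaltase (Sis) and lactase (Lct) are textbook examples of genes it activates through sites close to the start of transcription. The mature colon normally makes little of these digestive enzymes, although it keeps Cdx2. GATA factors and HNF4 are partners known at brush-border genes of the small intestine. The question put to the data was which of these genes are occupied by Cdx2 in colonic organoids, how strongly, and whether colon site or medium alters that.

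Occupancy was concentrated on 2 of the 9 members, Sis and Mgam, whose proteins split sucrose, maltose and the short glucose chains left from starch. Mgam had 21 sites and Sis 17, while Slc15a1 had 5, Slc5a1 had 4, Lct had 2, Anpep and Dpp4 had 1 each, and Treh and Alpi had 0. A site in at least 1 library was thus present at 7 of 9 members, against 84.5% of 21911 protein-coding genes in windows set the same way. A site called in all 12 libraries stood at 2 of 9 members, once at Sis and once at Mgam, against 12.9% of protein-coding genes. Holding all lists to the length of the shortest left 1 such site, that of Mgam, and widening the windows to 100 kb gave 6 at 4 members. A site within 3 kb of an annotated start was called at 3 of 9 members, Sis, Mgam and Slc5a1, against 22.7% of protein-coding genes, and that of Mgam came from a single library.

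The sequences under the summits are given for the sites that were called most widely, as the summit base and 50 bases to either side, taken at the summit of the library with the highest fold percentile, read from the plus strand of mm10. Capitals mark the Cdx2 letters searched for, which were the heptamer TTTATGA, its form TTTATGG with a final G, the form TTTATTA with T in place of G, and the matching TTTATTG, on either strand and counted once each. The first 2 are the sites called in all 12 libraries, and the others were added after their values had been seen, because they were the widest or best placed sites of their gene.

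Sis, 29.9 kb upstream, chr3:72997666-72997766: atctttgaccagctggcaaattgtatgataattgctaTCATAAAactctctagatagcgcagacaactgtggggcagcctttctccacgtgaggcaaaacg
Mgam, 9.5 kb downstream, chr6:40778588-40778688: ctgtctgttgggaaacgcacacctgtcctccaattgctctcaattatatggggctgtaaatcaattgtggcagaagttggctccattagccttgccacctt
Sis, 35.5 kb upstream, chr3:73003359-73003459: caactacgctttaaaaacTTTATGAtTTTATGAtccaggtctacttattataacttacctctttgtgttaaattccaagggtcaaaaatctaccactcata
Mgam, 15.6 kb downstream, chr6:40784655-40784755: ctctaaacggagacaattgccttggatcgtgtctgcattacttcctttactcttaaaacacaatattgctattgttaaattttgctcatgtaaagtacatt
Mgam, 49.6 kb downstream, chr6:40818640-40818740: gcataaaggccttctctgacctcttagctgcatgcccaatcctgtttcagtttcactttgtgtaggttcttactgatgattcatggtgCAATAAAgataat
Slc5a1, 31.6 kb inside the gene, chr5:33135794-33135894: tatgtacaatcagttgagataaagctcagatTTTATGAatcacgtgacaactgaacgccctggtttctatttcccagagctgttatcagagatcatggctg
Slc15a1, 33.5 kb inside the gene, chr14:121471710-121471810: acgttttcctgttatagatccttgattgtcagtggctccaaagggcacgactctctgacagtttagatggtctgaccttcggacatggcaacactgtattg

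The upstream Sis site at 29.9 kb carried 1 Cdx2 heptamer, and the one at 35.5 kb carried 2 that were separated by a single base. Neither the Mgam site 9.5 kb downstream nor that at 15.6 kb carried any of these letters within 50 bp of the summit, although both were among the most widely called sites. The intronic Slc5a1 site and the Mgam site 49.6 kb downstream each carried a Cdx2 and a GATA match (AGATAA). The Slc15a1 site had none of the motifs searched.

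Promoters were read from RefSeq (GRCm38.p6, the assembly of mm10), in which all 9 members were found, and 3 of the 9 held the Cdx2 letters between 250 bases before and 50 after the start, against 14.4% of 32851 promoters of that length. The 150 bases before the start of these 3 are shown on the strand of the gene.

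Sis promoter, chr3:72967864-72968013, minus strand: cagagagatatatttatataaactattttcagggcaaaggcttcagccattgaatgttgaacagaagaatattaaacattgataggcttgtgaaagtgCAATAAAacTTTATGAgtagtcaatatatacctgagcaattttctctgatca
Lct promoter, chr1:128328319-128328468, minus strand: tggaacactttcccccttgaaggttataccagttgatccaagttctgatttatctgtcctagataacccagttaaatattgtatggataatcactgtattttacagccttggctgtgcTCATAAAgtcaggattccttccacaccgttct
Mgam promoter, chr6:40628681-40628830, plus strand: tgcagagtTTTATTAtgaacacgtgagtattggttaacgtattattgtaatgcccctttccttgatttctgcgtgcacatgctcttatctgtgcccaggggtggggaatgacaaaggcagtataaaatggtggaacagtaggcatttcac

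In the Sis promoter CAATAAA began 52 bases and TTTATGA 43 bases before the start. In the Lct promoter TCATAAA began 32 bases before it, and in the Mgam promoter TTTATTA began 142 bases before it. Of these 3 starts that of Sis lay under a widely called peak, whereas no library had a peak within 27.5 kb of the Lct gene and only 1 library had one near the start of Mgam. GATA letters were found in the promoters of Lct, Mgam and Dpp4, against 11.2% of all promoters. HNF4 letters (CAAAGTCCA or CAAAGGTCA) were found in those of Treh and Alpi, against 0.95% of all promoters, and both of these genes had no Cdx2 peak.

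**Figure D1:**
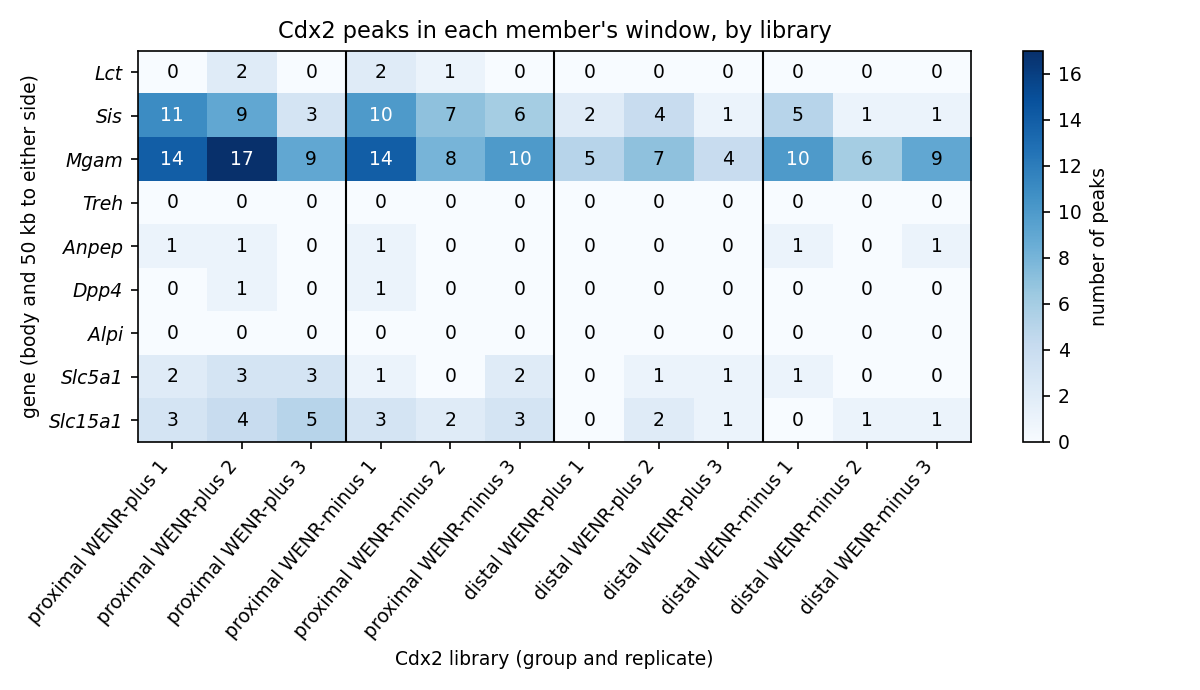
Number of Cdx2 peaks (colour and digits) with a summit in the gene body or 50 kb to either side of each member (rows) in each of the 12 libraries (columns, black lines between the 4 groups). Sis and Mgam have peaks in all 12 libraries, from 1 to 11 and from 4 to 17, while Treh and Alpi have 0 throughout.

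Sis, which encodes the enzyme complex that splits sucrose and isomaltose, lies on the minus strand at chr3:72888557-72967863. Its 17 sites amounted to 94.8 per Mb of window, a density reached or passed by 0.776% of protein-coding genes, for which the median was 18.8 per Mb. In proximal WENR-plus organoids the 3 libraries had 11, 9 and 3 peaks, and in proximal WENR-minus organoids 10, 7 and 6. In distal organoids there were 2, 4 and 1 peaks in WENR-plus and 5, 1 and 1 in WENR-minus medium. Averaged over the media of a line, proximal lines had 7.67 ± 3.01 peaks and distal lines 2.33 ± 1.26 (SD, n = 3 lines each). The lines did not overlap, which gives the smallest value that a two-sided exact permutation test of 3 against 3 can reach (p = 0.1, 0.175 adjusted over the 7 members with a peak). The proximal lists were longer, and shares of the list are given below. For peak numbers, the share of all protein-coding genes whose lines did not overlap was not counted, here or for the other members.

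Of the Sis sites 10 lay upstream or at the promoter and 7 inside the gene. The site called in every library was chr3:72996984-72998257, 29.9 kb upstream. Strength was read as the fold percentile, the rank of a peak's fold enrichment over the input within its own list, in percent with ties sharing a mean rank, because fold values of libraries with different depth are not on one scale. At this site it was 95.2, 97.3 and 77.7 in proximal WENR-plus and 98.0, 92.9 and 95.3 in proximal WENR-minus libraries. In distal libraries it was 70.6, 1.37 and 66.98 in WENR-plus and 89.1, 58.7 and 74.9 in WENR-minus medium. All proximal libraries but 1 lay above all distal ones, the exception being the third proximal WENR-plus library at 77.7, which lay below 1 distal library at 89.1.

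Line means at that Sis site were 92.7 ± 5.45 proximally and 60.3 ± 26.6 distally and did not overlap (two-sided exact permutation test, p = 0.1, n = 3 lines each). Across all 2079 sites called in 12 libraries, 28.8% had proximal lines wholly above distal lines and 2.21% the opposite, so a proximal lean was common among these sites. A longer list holds more weak peaks, which raises the percentile of the same peak, and the proximal lists were longer. Lists of equal length were made by keeping the 5608 peaks of each list with the highest −log10 p, the length of the shortest list. These are the strongest peaks meant below. Among them, and with 0 where a site was not kept, the line means at the Sis site were 76.4 ± 7.16 and 49.0 ± 24.4. They again did not overlap (exact permutation test, p = 0.1, n = 3 lines each). On this scale 8.99% of the 2079 sites had proximal lines wholly above distal lines and 16.5% the opposite. The second distal WENR-plus library, with a fold of 3.78, had much the lowest value, and without the second line of each site the difference fell from 32.5 to 16.2 percentile points.

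The Sis promoter peak, chr3:72967565-72968318, has its strongest summit 28 bp upstream of the start, beside the pair of Cdx2 heptamers shown above. It was called in all 6 proximal libraries, with fold percentiles of 81.6, 93.2 and 33.7 in WENR-plus and 94.1, 84.7 and 74.5 in WENR-minus medium. In distal organoids it was called in 2 of 6 libraries, both from the first line, at 50.2 in WENR-plus and 86.2 in WENR-minus medium. The proximal excess of 6 against 2 libraries did not pass a two-sided Fisher's exact test (p = 0.0606, 0.582 adjusted over 35518 sites). When each list was held to its 5608 strongest peaks, the promoter was called in 4 proximal and 2 distal libraries.

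Another strong Sis site, chr3:73002966-73003923, 35.5 kb upstream, had the same numbers of 6 proximal and 2 distal libraries. Its percentiles were 93.2, 95.2 and 85.3 in proximal WENR-plus libraries and 87.7, 81.0 and 85.8 in proximal WENR-minus libraries. The second distal WENR-plus library had it at 30.5 and the first distal WENR-minus library at 67.9, both below all 6 proximal values, and in lists of equal length it was called in the 6 proximal libraries and no distal one. The site 17.99 kb upstream was called in 4 proximal and 2 distal libraries with a median percentile of 81.3. The site 9.0 kb upstream was called in 5 proximal libraries and no distal one (Fisher's exact test, p = 0.0152, 0.289 adjusted). In lists of equal length it was called in 1 proximal library and no distal one. The remaining Sis sites were called in 1 to 5 libraries, 8 of them in a single library.

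**Figure D2:**
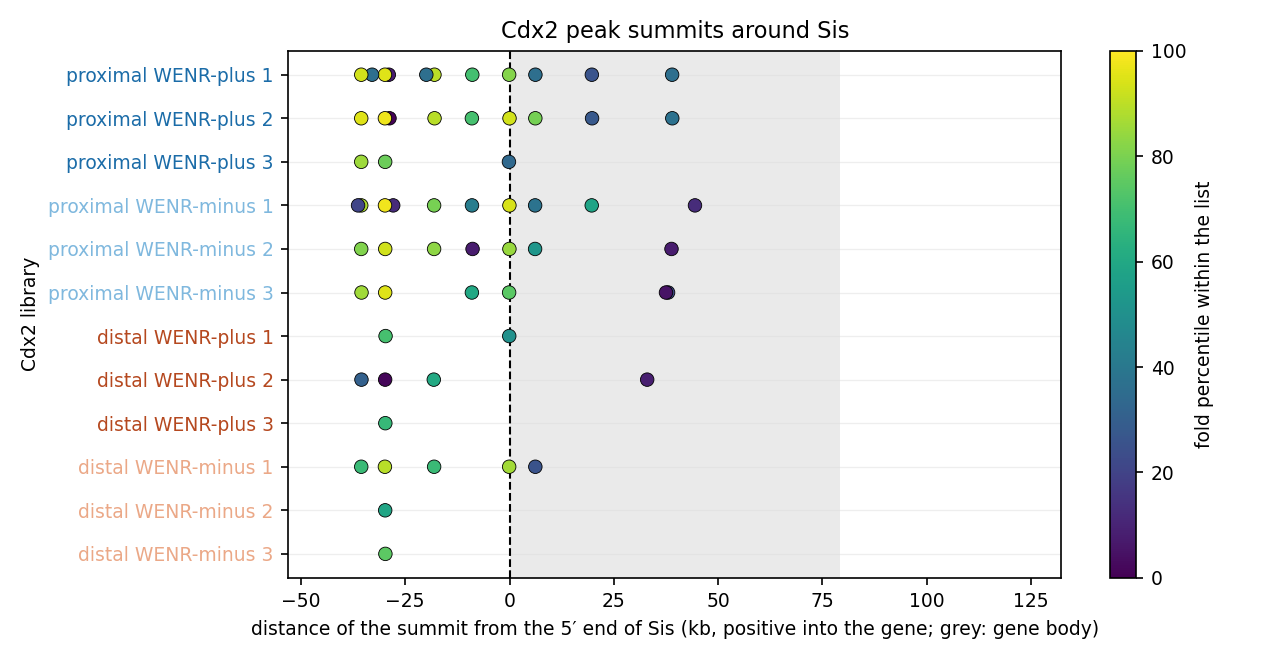
Position of each Cdx2 peak summit relative to the 5′ end of Sis (x axis, kb, with the gene body in grey), 1 row per library, coloured by the fold percentile within that library's list. A column of summits 29.9 kb upstream runs through all 12 libraries, and those at the promoter and 35.5 kb upstream run through the 6 proximal ones and 2 distal ones each.

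Mgam, the maltase-glucoamylase that shares starch digestion with Sis, lies on the plus strand at chr6:40628831-40769123. Its 21 sites corresponded to 87.4 per Mb, a density reached by 1.22% of protein-coding genes. Proximal libraries had 14, 17 and 9 peaks in WENR-plus and 14, 8 and 10 in WENR-minus medium. Distal libraries had 5, 7 and 4 peaks in WENR-plus and 10, 6 and 9 in WENR-minus medium. Proximal lines averaged 12.0 ± 2.29 peaks and distal lines 6.83 ± 0.577 (SD, n = 3 lines each) and did not overlap (exact permutation test, p = 0.1, 0.175 adjusted over 7 members). The proximal lists were longer. As a share of the list the distal lines were higher, at 0.0715% against 0.0564% (exact permutation test, p = 0.5, 0.7 adjusted).

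By place, 5 of the Mgam sites lay upstream, 7 inside the gene and 9 downstream. The downstream ones held the widest calls, and 7 of them lay within Mgam2-ps, an annotated pseudogene copy next to Mgam, so an assignment to Mgam rests on distance alone. The upstream 5 had their nearest protein-coding start at Clec5a, a lectin receptor of myeloid cells, or Tas2r138, a bitter taste receptor. The site called in all 12 libraries, chr6:40778183-40779289, lay between Mgam and Mgam2-ps, 9.5 kb past the end of the gene and 29.2 kb from the nearest start of an Mgam transcript.

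At this Mgam site the fold percentile was 95.6, 95.8 and 89.7 in proximal WENR-plus and 95.7, 49.3 and 73.2 in proximal WENR-minus libraries. Distal libraries had 60.1, 96.9 and 94.8 in WENR-plus and 97.1, 80.1 and 84.2 in WENR-minus medium. The sites of the colon overlapped fully, with line means of 83.2 ± 11.6 proximally and 85.6 ± 6.00 distally (exact permutation test, p = 0.9, n = 3 lines each). Among the 5608 strongest peaks of each list the means were 57.5 ± 20.6 and 79.0 ± 9.37 (exact permutation test, p = 0.2, n = 3 lines each). It was retained in all 12 libraries in lists of equal length, which the Sis site was in 11.

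Calls in 11 libraries were found at 2 further Mgam sites, chr6:40784207-40784908 at 15.6 kb downstream, with a median percentile of 83.5, and chr6:40818369-40819006 at 49.6 kb downstream, with a median of 73.0. In lists of equal length the site at 15.6 kb was called in 3 proximal and 6 distal libraries, and that at 49.6 kb in 4 of each. The site at 46.9 kb, chr6:40815708-40816541, was called in fewer distal than proximal libraries. All 6 proximal libraries called it between 91.1 and 97.0, whereas 3 of 6 distal libraries called it, at 45.9 in WENR-plus and at 52.0 and 67.4 in WENR-minus medium, in lists that were shorter distally. In lists of equal length it was called in 6 proximal and 2 distal libraries, with percentiles among the peaks kept of 53.9 to 93.9 proximally and at most 54.0 distally. The site 48.3 kb downstream was called in 5 proximal libraries and no distal one (Fisher's exact test, p = 0.0152, 0.289 adjusted over 35518 sites). In lists of equal length it was called in 2 proximal libraries and no distal one.

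At several Mgam sites, singled out after their values were seen, more distal libraries called the site in WENR-minus than in WENR-plus medium. The site 26.1 kb downstream was called in 0 of 3 distal WENR-plus and 3 of 3 distal WENR-minus libraries, besides all 6 proximal ones, with percentiles from 48.1 to 79.3. The intronic site 111.0 kb from the 5′ end was called in 0 and 2 of 3 distal libraries and in all 6 proximal ones. The weak site 5.6 kb downstream was called in the 3 distal WENR-minus libraries alone, at percentiles of 25.7, 9.27 and 19.0. The site 22.6 kb downstream was called in 1 of 3 distal WENR-plus and 3 of 3 distal WENR-minus libraries, and in 4 proximal ones. The lists of the distal WENR-minus group were also longer, 7895 to 21040 peaks against 5608 to 13371 in distal WENR-plus. In lists of equal length the site at 26.1 kb was called in 1 proximal and 2 distal WENR-minus libraries, that at 111.0 kb in 4 proximal and 1 distal WENR-minus library, and that at 5.6 kb in none. The site at 22.6 kb was then called in the 3 distal WENR-minus libraries, in 0 distal WENR-plus libraries and in 0 proximal ones. Other Mgam sites went the opposite way in the full lists. Those 37.7 kb upstream and 5.9 kb inside the gene were called in 2 distal WENR-plus libraries and 1 distal WENR-minus library each. The site 39.6 kb upstream was called in 1 and 0. How often all sites differed by medium in distal organoids was not counted, so no effect of medium at Mgam can be read from these calls.

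**Figure D3:**
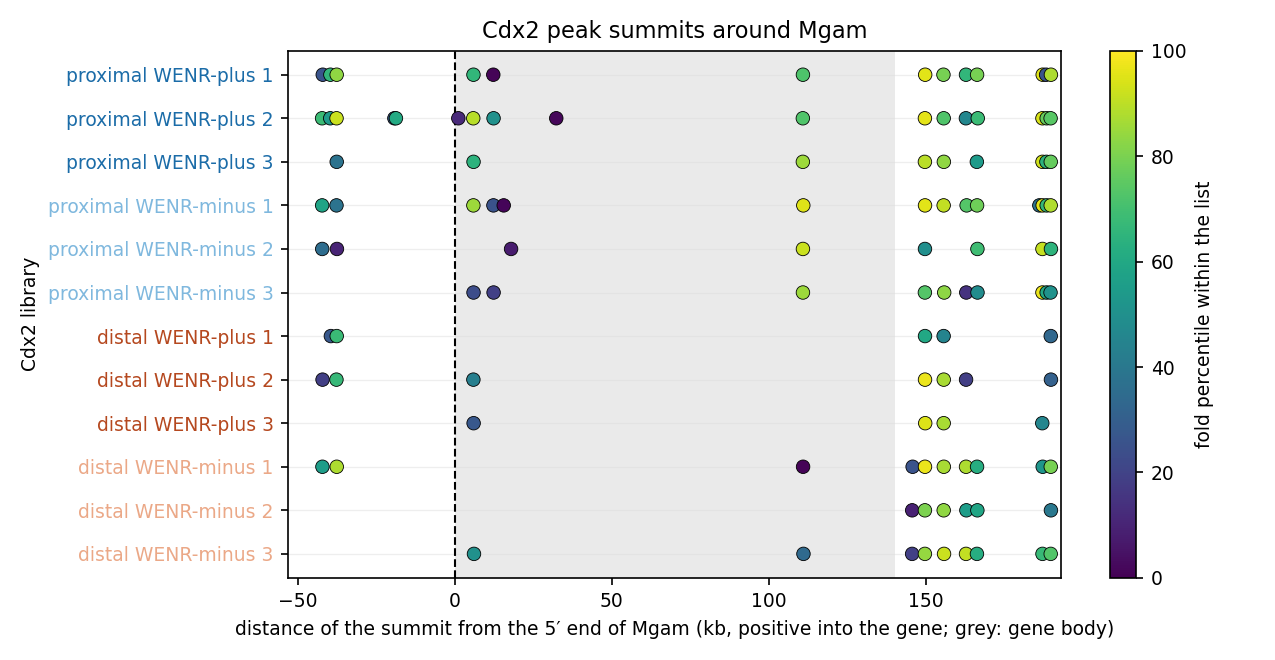
Position of each Cdx2 peak summit relative to the 5′ end of Mgam (x axis, kb, with the gene body in grey), 1 row per library, coloured by the fold percentile within that library's list. The summits 9.5 kb past the end of the gene run through all 12 libraries, and the start of the gene has a summit in 1 library.

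Slc15a1, the apical carrier of dipeptides and tripeptides, had 5 sites around chr14:121459621-121505252. Proximal libraries had 3, 4 and 5 peaks in WENR-plus and 3, 2 and 3 in WENR-minus medium. Distal libraries had 0, 2 and 1 in WENR-plus and 0, 1 and 1 in WENR-minus medium. Its lines averaged 3.33 ± 0.577 and 0.833 ± 0.764 peaks and did not overlap (exact permutation test, p = 0.1, 0.175 adjusted, n = 3 lines each). The proximal lists were longer. As a share of the list the values were 0.0175% ± 0.0121 in proximal and 0.00968% ± 0.00842 in distal lines (exact permutation test, p = 0.6, 0.7 adjusted). The widest site, inside the gene at chr14:121471481-121472133, was called in 9 libraries, 5 proximal and 4 distal, at a median percentile of 33.6. The site 36.3 kb upstream was called in 6 proximal libraries and 1 distal library and that 41.97 kb downstream in 5 and 0 (Fisher's exact test, p = 0.0152 each, 0.289 adjusted), the second being nearer to Stk24 than to Slc15a1. In lists of equal length each of these 2 sites was called in 1 proximal library and 0 distal ones.

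Slc5a1, the sodium-coupled transporter that takes up glucose and galactose, had its 4 sites inside the gene at chr5:33104219-33162870. Proximal libraries had 2, 3 and 3 peaks in WENR-plus and 1, 0 and 2 in WENR-minus medium. Distal libraries had 0, 1 and 1 in WENR-plus and 1, 0 and 0 in WENR-minus medium. The site nearest to its start, 0.9 kb into the gene, was called in the 3 proximal WENR-plus libraries alone, at the low percentiles of 20.4, 16.6 and 33.7. The site at 31.6 kb was called in 5 libraries, 3 proximal and 2 distal, with a median percentile of 56.7.

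The other 5 members were sparsely covered or empty. Lct had peaks in 3 proximal libraries and no distal one, and both of its sites lay nearer to the start of another gene, Ubxn4 at 1.68 kb and Mcm6 at 3.801 kb. Anpep, aminopeptidase N, had 1 site 17.7 kb upstream, in an exon of the neighbouring gene Ap3s2, called in 3 proximal and 2 distal libraries at a median percentile of 29.7. Dpp4, dipeptidyl peptidase 4, had 1 site in 2 proximal libraries, 46.9 kb past its end and closer to Slc4a10. The nearest peak of any library lay 86.1 kb from the gene body of Treh, the trehalase, and 62.2 kb from that of Alpi, an intestinal alkaline phosphatase. A window without a peak was no rarity, since 15.5% of protein-coding genes had none.

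**Figure D4:**
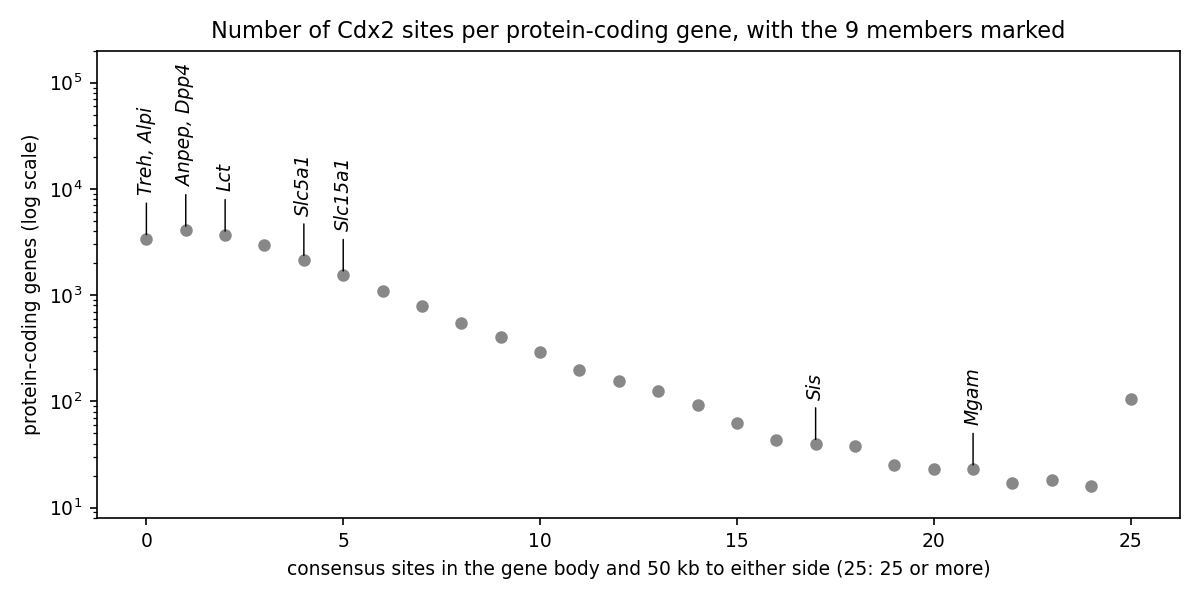
Number of protein-coding genes (y axis, log scale) by the number of merged Cdx2 sites in the gene body and 50 kb to either side (x axis, with 25 or more pooled at 25), with the 9 members marked. Sis with 17 and Mgam with 21 sites lie in the upper tail, and the other 7 have 0 to 5, where most genes are.

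Over all members, proximal libraries had more peaks than distal libraries in both media, and the groups did not overlap. In WENR-plus medium there were 31, 37 and 20 peaks in proximal and 7, 14 and 7 in distal libraries, which is 29.3 ± 8.62 against 9.33 ± 4.04 (SD, n = 3 each). In WENR-minus medium there were 32, 18 and 21 against 17, 8 and 12, which is 23.7 ± 7.37 against 12.3 ± 4.51. The log2 differences, with 1 added to each number, were 1.58 and 0.90, and each had the smallest p that 3 against 3 allows (two-sided exact permutation test, p = 0.1). In lists of equal length the differences were 0.46 and 0.21 (exact permutation test, p = 0.3 and p = 0.4). Between media the groups overlapped, with log2 differences of 0.30 proximally and -0.38 distally (exact permutation test, p = 0.5 each).

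The lists themselves differed in length, from 11409 to 42192 peaks in proximal and 5608 to 21040 in distal libraries. As a share of the list, the member windows took 0.124% ± 0.0362 in proximal and 0.110% ± 0.0259 in distal lines (SD, n = 3 lines each), which overlapped (exact permutation test, p = 0.7). They cover 0.0516% of the genome. The share was 0.109% ± 0.0225 in WENR-plus and 0.124% ± 0.0373 in WENR-minus libraries (SD, n = 6 each, exact sign-flip test over the 6 lines, p = 0.25). With only the peaks whose nearest protein-coding start was that of a member, the WENR-minus share was higher in each of the 6 lines (log2 difference -0.28, exact sign-flip test, p = 0.0312, the smallest that 6 lines allow). The lines share 3 replicate numbers and came from 3 mice, and with the replicate number as the unit the same difference gave p = 0.25, the smallest that 3 allow (exact paired sign-flip test).

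Taken by gene, the share of the list at Sis was 0.0350% ± 0.00235 in proximal and 0.0207% ± 0.00513 in distal lines, and that at Mgam 0.0564% ± 0.0178 and 0.0715% ± 0.0186 (SD, n = 3 lines each). The Sis shares gave p = 0.1 and the Mgam shares p = 0.5 (exact permutation tests, both 0.7 adjusted over 7 members). The contrast of the 2 genes, looked at after these values were seen, was tested as the percent of Sis among the peaks at Sis and Mgam. It was 42.9%, 39.0% and 32.1% in the proximal lines and 31.8%, 27.8% and 13.3% in the distal lines, which do not overlap but come close (exact permutation test, p = 0.1). In lists of equal length, Sis had 2 to 4 peaks in proximal and 1 or 2 in distal libraries, and Mgam had 4 to 7 and 3 to 8.

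Each site was also compared by the number of proximal and distal libraries that called it, 6 of each, although the libraries of a line in 2 media are not independent. Of the 35 member sites in at least 2 libraries, 29 were called in more proximal libraries, 2 in more distal libraries and 4 in equal numbers, and 29 of 35 is 82.9% where all sites gave 76.3%. At an unadjusted p under 0.05 (two-sided Fisher's exact test), 4 member sites, or 11.4%, were called more often in proximal libraries, against 4.96% of 35518 sites. With lines as the unit, each of the 4 gave p = 0.1, the smallest that 3 against 3 allows (exact permutation test). Without the first or without the third replicates the number at an unadjusted p under 0.05 was 1. No member site was called more often in distal libraries at that level, against 0.282% of all. None of the 35518 sites passed the Benjamini-Hochberg adjustment, the lowest adjusted p being 0.114.

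**Figure D5:**
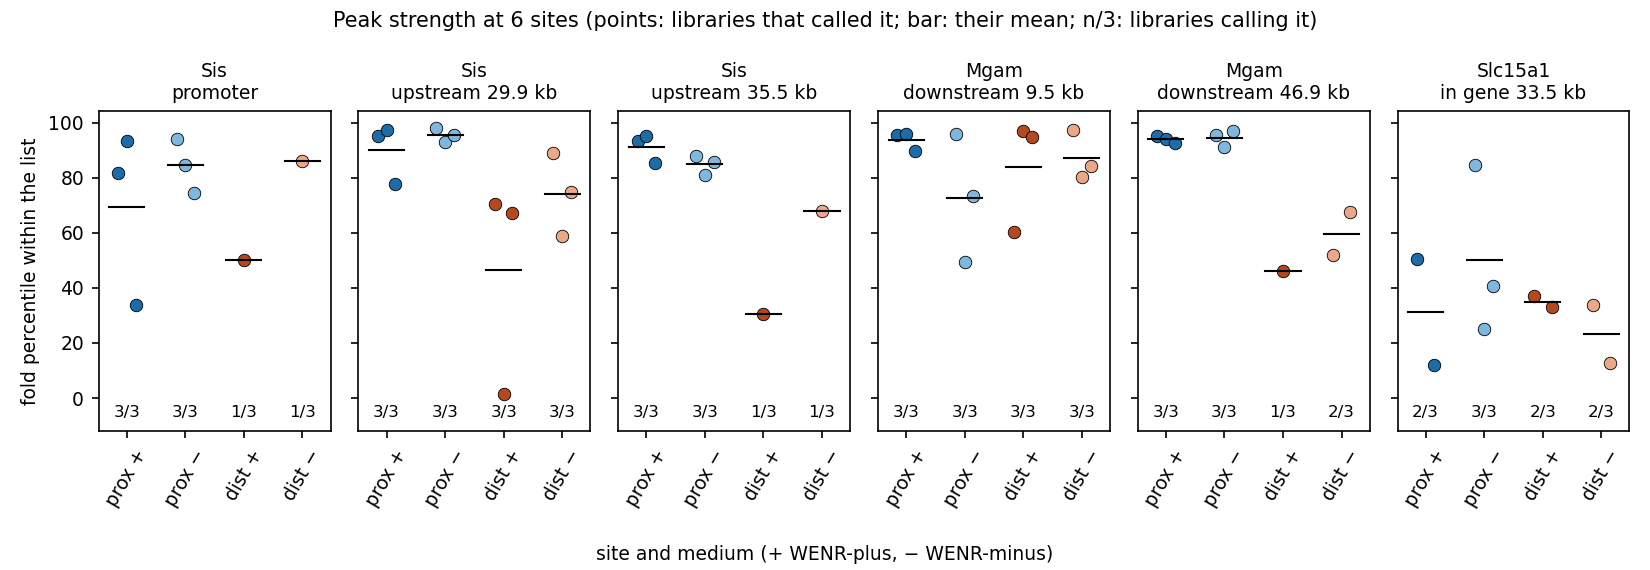
Fold percentile (y axis) at 6 member sites in each library that called the site (points, by colon site and medium on the x axis, + for WENR-plus and − for WENR-minus), with the mean of those libraries as a bar and their number out of 3 below. The Mgam site 46.9 kb downstream lies between 91.1 and 97.0 in the 6 proximal libraries and between 45.9 and 67.4 in the 3 distal ones that called it, while the all-library Mgam site overlaps between colon sites.

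In breadth the member sites were set beside all sites of the map. Of 51 sites 16 were called in a single library (31.4%, against 42.2% of all sites), 16 in 6 or more (31.4% against 19.9%) and 2 in all 12 (3.92% against 3.38%). Strength was higher at broadly called sites, from a median percentile of 16.4 for the 16 sites in 1 library to 70.2 for the 14 sites in 6 to 11 libraries, where all sites had 25.1 and 62.2. Of the 14, the Sis promoter stood at 83.2, the Sis site 35.5 kb upstream at 85.5 and the Mgam site 46.9 kb downstream at 92.7. By place, 19 member sites lay inside a member, 19 upstream and 13 downstream.

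The Cdx2 letters were found within 50 bp of the summit at 25 of 51 member sites, or 49.0% (95% Wilson interval 35.9 to 62.3), where all 61454 sites had 57.1%. In the same windows moved by 1000 bp to either side the shares were 25.5% and 11.7%. Member sites in 1 library had the letters at 5 of 16 (31.25%, and 40.6% when moved), where all such sites had 51.7% (12.2% when moved). Member sites in 6 or more libraries had the letters at 9 of 16 (56.25%, and 25% when moved), where all such sites had 64.1% (10.7% when moved). Sis had them at 10 of 17 sites and Mgam at 8 of 21. Lct (2 of 2), Anpep and Dpp4 (1 of 1 each), Slc5a1 (1 of 4) and Slc15a1 (2 of 5) made up the rest. GATA letters stood at 6 of 51 member sites against 10.05% of all sites. HNF4 letters stood at 2 member sites, both at Mgam, 5.9 kb inside the gene and 26.1 kb downstream and called in 8 and 9 libraries, and at 1.35% of all sites.

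The same counts were made for 4 other lists of genes. Of 26 other brush-border hydrolases and nutrient transporters, 25 had a site, 4 had one in all 12 libraries and 10 had one at a promoter. Their most densely covered gene was Slc10a2, which carries bile acids into ileal enterocytes, with 20 sites of which 3 were called in all 12 libraries. Akp3, an alkaline phosphatase gene beside Alpi, had none, as Alpi did. Of 12 genes of lipid absorption none had a site in all 12 libraries and 3 had a promoter site. Of 14 genes of colonic ion and water transport, 7 had a site in all 12 libraries, among them Slc9a2 and Car1 with 3 each, and 10 had a promoter site.

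Sites per Mb of window were 36.3 for the members, 32.04 for the other brush-border genes, 25.6 for lipid absorption and 57.7 for colonic ion and water transport, against 23.8 for all protein-coding genes. The members' value came mostly from Sis and Mgam, which held 38 of the 51 sites. Of 11 genes of blood, stroma, vessel, nerve and muscle cells, 9 had a site and 0 had one in all 12 libraries, at 21.3 sites per Mb. No expression was measured here, so whether the organoids transcribe any of the members was not analysed.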

How the data were processed

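Peak lists of 12 Cdx2 libraries were analysed, and the members and gene lists were chosen with earlier results of these data known. The authors trimmed reads (Trimmomatic 0.39), aligned them to mm10 (Bowtie2 2.4.5) and called peaks in each library against its input (MACS2 2.2.7.1, q-value limit 0.01). In the lists as deposited by the authors, fold is the ratio of a summit's pileup to local background, and the deposited −log10 p-value and −log10 q-value belong to the summit. The authors' lists hold no read counts and the read totals given in the study's supplement were not used here, so folds were compared only as ranks within a list, beside numbers of peaks and shares of lists. Peaks on chromosomes 1 to 19, X and Y that overlapped by 1 bp were merged, and 0 ran past a chromosome end. Genes came from GENCODE vM21 and bases from GRCm38.p6.

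All members are described. Sites described were mainly, for each member, the site called in most libraries, those within 3 kb of a start and those called in all 3 libraries of a group. Of the last kind, the Slc15a1 site 44.8 kb downstream was left out, and the Mgam site 37.7 kb upstream was given for its distal calls alone. The Mgam site 5.9 kb inside the gene was given for its motif and its distal calls. Libraries were grouped by colon site and medium. A line is the same colon site and replicate number in both media. Tests were two-sided exact permutation tests (scipy 1.17.1, Python 3.11.15), exact sign flips, and Fisher's exact test with Benjamini-Hochberg adjustment over all sites in at least 2 libraries, checked on simulated calls. Proximal and distal organoids share replicate numbers, but of 18 same-numbered pairs of libraries 8 had deviations correlated above 0.1 (range -0.07 to 0.30). On that ground the main tests were not paired, except that of the share by medium, which was made within lines. The paper reports that most variation in Cdx2 binding came from the independent mice. Results with the replicate number as block are given among the alternatives. Alternatives were other windows, stricter peaks, equal list lengths, nearest-start assignment, a stretch-based call, other promoter and motif widths and leaving out each replicate.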

Additional observations from a re-analysis of the deposited data

How the results depend on the processing

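The proximal excess of member peaks kept its direction in every alternative run. Leaving out 1 replicate gave log2 differences of 1.37 to 1.70 in WENR-plus and 0.82 to 0.98 in WENR-minus medium. Lists of equal length gave 0.46 and 0.21 (exact permutation p = 0.3 and p = 0.4). The small medium differences turned, to -0.037 proximally in lists of equal length, with -0.056 to 0.48 over the replicates left out, and to between -0.94 and 0.018 distally. The share difference of 0.07 between colon sites turned to -0.028 in 100 kb windows and to -0.0031 with nearest starts, and the medium share became -0.28 with nearest starts (exact sign-flip p = 0.0312, but 0.25 with the replicate block), with replicates left out giving 0.02 to 0.17 and -0.24 to -0.08. With the replicate block, exact paired sign flips gave p = 0.25 for both numbers by colon site, 1 and 0.75 by medium, 0.5 for both shares, and 0.25 for the Sis and 1 for the Mgam percentile, and no other call changed. The Mgam percentile difference of -2.36 became 1.31 by −log10 p and -21.5 in lists of equal length (chosen after seeing the data), where that of Sis was 27.5. It ran from -12.02 to 4.45 over replicates left out, that of Sis from 16.2 to 40.9.

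Sites in all 12 libraries numbered 2, but 1 in 10 kb windows, at a −log10 q of at least 5, at a fold of at least 5, in lists of equal length or by summits in the stretch that most libraries cover (chosen after seeing the data), and 6 in 100 kb windows. The members with such a site numbered 1 in the same settings and 4 in 100 kb windows. Without a replicate, a site had to be called only in all the libraries kept, which gave 3 sites, and 2 or 3 members. Promoter sites stood at 1 member in lists of equal length, and at 2 or 3 without a replicate. Proximal sites at p under 0.05 fell from 4 to 1 in 10 kb windows, at a fold of at least 5 and in equal lists, to 2 by the shared stretch, and to between 1 and 4 without a replicate. The 1 in equal lists was not among the 4. It was the Sis site 35.5 kb upstream, called there in 6 proximal libraries and 0 distal ones. In equal lists the 4 were called in 1 or 2 proximal libraries and 0 distal ones. The share of sites with Cdx2 letters was 68.6% within 100 bp, where all sites had 78.5% and the member windows moved by 1000 bp had 36.3%. A summit always lies in its own merged region, so that planned choice changed nothing. The cause of these shifts was not tested.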
